A study of Homo sapiens with 4 samples.

Results

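The genes that carry glucose to pyruvate and lactate were examined in cells exposed to creatine, as 32 genes out of the 34545 gene symbols counted. They were chosen by name, with earlier results of these data known. They run from the transporters that take glucose up to the complex that feeds pyruvate to the mitochondrion. RNA sequencing of total RNA was available for 2 libraries labelled creatine and 2 labelled Ctrl (control here). All were labelled as DLD-1 cells, a human colorectal carcinoma line, of WT genotype. The study's stated interest was creatine in the ferroptosis of colorectal cancer. The labels give neither the dose of creatine nor the time of exposure, nor do they state that replicates are independent cultures. The p-values below therefore rest on differences among libraries of a group that could be technical only. Of the 32 genes, 31 passed the filter on low counts, and PDK4 did not.

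Glycolysis splits glucose into pyruvate in a chain of enzymes, most of which exist as several isoforms encoded by separate genes. Hexokinase, phosphofructokinase and pyruvate kinase catalyse its irreversible steps, and the PFKFB enzymes make or remove fructose 2,6-bisphosphate, an activator of phosphofructokinase. Lactate dehydrogenase turns pyruvate into lactate, which leaves the cell through monocarboxylate transporters. Pyruvate dehydrogenase instead converts pyruvate to acetyl-CoA, and its kinases switch it off. Many tumour lines run this pathway at a high rate also in the presence of oxygen, and creatine buffers ATP, the product of the pathway, as phosphocreatine.

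Total counts were 51073738 and 48249693 in the creatine libraries and 59860043 and 49207427 in the control libraries. The label was checked against 11 colon epithelial markers, and most of them did not bear it out. KRT8 and KRT18 alone averaged over 10 CPM (counts scaled to the library total). EPCAM had 2 counts in control library 1 and 0 elsewhere, and CDX1 was at 0 in all 4 libraries. CDX2, VIL1, CDH1, KRT20, LGALS4, GPA33 and CDH17 averaged at most 0.863 CPM in either group. The identity of the cells is therefore in doubt. All 5 mesenchymal markers (VIM, CDH2, FN1, ZEB1 and MMP14) averaged over 10 CPM, and their sum was 4974 and 4905 CPM in the creatine libraries against 5558 and 5482 CPM in the control libraries. The epithelial markers summed to 327 and 342 CPM with creatine against 392.1 and 396 CPM in controls, nearly all of it from KRT8 and KRT18. None of 5 fibroblast markers averaged over 10 CPM, while 1 of 4 immune markers (CD68) and 1 of 3 measured endothelial markers (TIE1) did. The immune list summed to 150 and 152 CPM with creatine against 182 and 172 CPM in controls, and the endothelial list to 311 and 315 CPM against 371 and 383 CPM. Fibroblast markers summed to at most 13.0 CPM in any library, and 4 measured markers of RNA quality to 8.58 and 5.43 CPM with creatine against 5.52 and 6.72 CPM in controls. The part of these lists in the results below was not tested. The cells are referred to by their label only.

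Genes at several steps of glycolysis were modestly lower with creatine: SLC2A1 at uptake, HK1, GPI, PFKL, PFKP and ALDOC in the upper pathway, GAPDH, PGAM1, ENO1, ENO2 and PKM in the lower, PFKFB3, and SLC16A3 and BSG at lactate export. LDHA, LDHB, PGK1, HK2 and the pyruvate dehydrogenase subunits and kinases were not called. In the edgeR quasi-likelihood test, with Benjamini-Hochberg adjustment over 15302 genes, 14 of the 31 genes tested fell, none rose and 17 did not pass an adjusted p of 0.05. Of all genes tested, 10.5% fell, 9.15% rose and 19.6% changed in either direction. Falls of the 14 genes were small, between -0.17 and -0.35 on the log2 scale (creatine over control). The 32 genes together took 2.47% and 2.50% of all counts in the creatine libraries against 2.77% and 2.75% in the control libraries, and their summed level was 24810 ± 504 against 27624 ± 82.3 CPM (SD, n = 2 each). With upper-quartile scaling, DESeq2 or limma-voom the split was 2 higher and 14 lower, LDHB and SLC16A1 being the 2 higher. Those fits called 19.5%, 28.8% and 20.8% of all genes they tested, where DESeq2 tested 10396 genes and 30 of the members. At an unadjusted p under 0.05 in the edgeR test, 2 of the 31 were higher and 16 lower. Over all 15302 genes, 2399 were higher and 2531 lower at that level. The falls went with a high GC content of the transcripts, and HK1 alone was called once trends on GC content and gene length were removed, as given after the single genes.

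**Figure D1:**
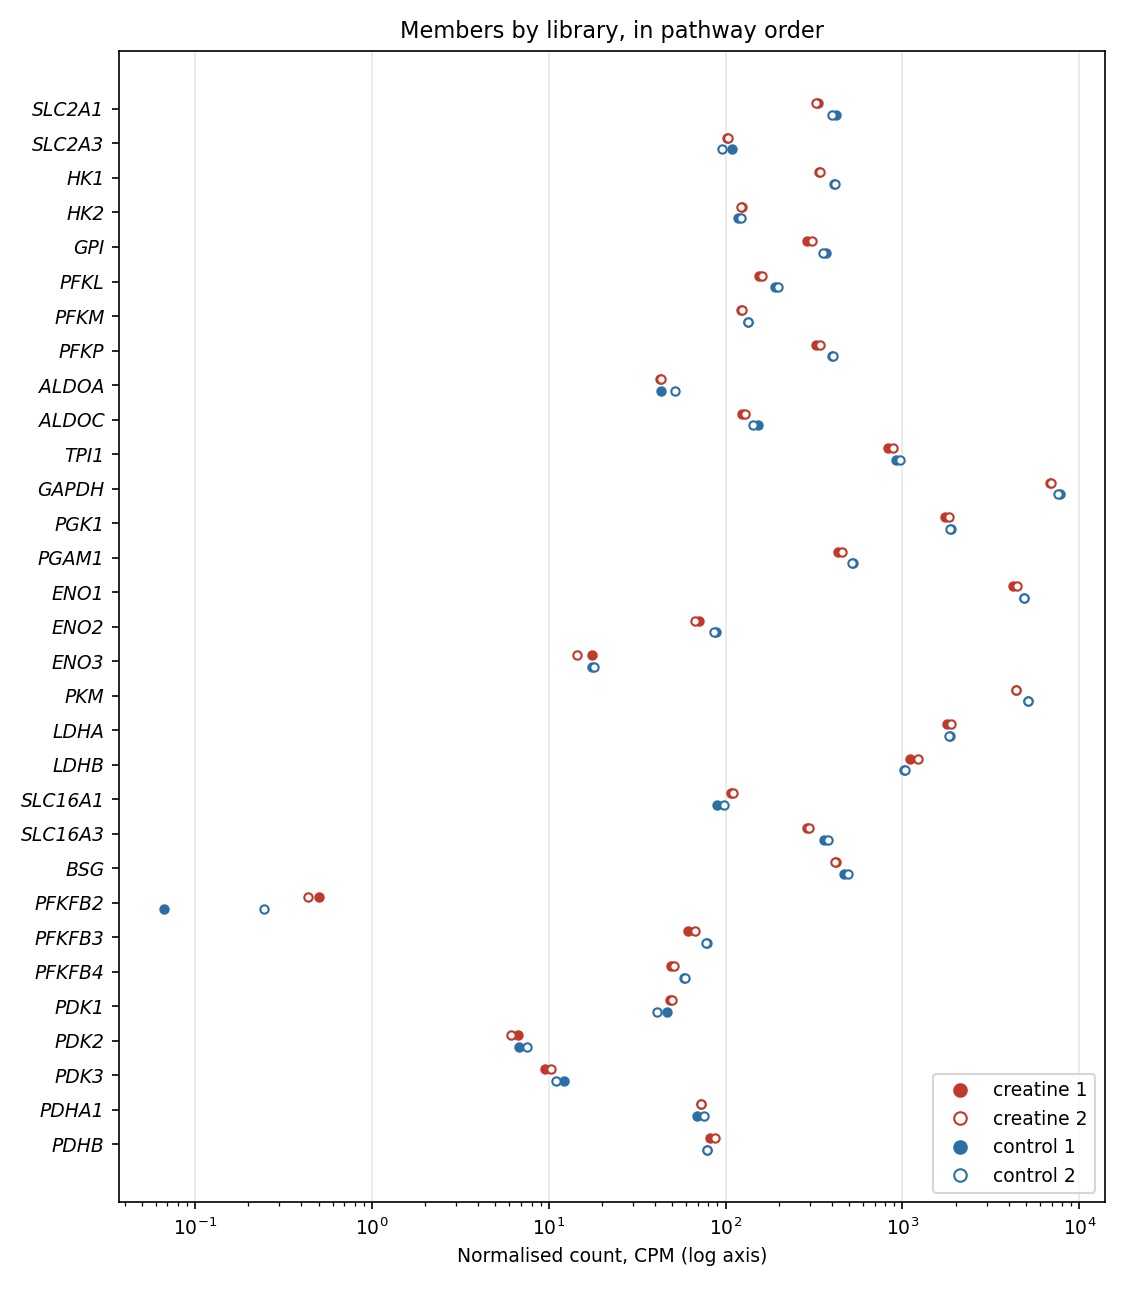
Normalised count of each of the 31 tested genes in every library, in CPM on a log axis, with genes in pathway order down the page and the creatine libraries (red) above the control libraries (blue) in each row. GAPDH, PKM and ENO1 take the most reads in every library, and within a gene the libraries lie close together apart from PFKFB2, which is below 1 CPM.

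The median log2 fold change of the tested genes was -0.17 and 23 of 31 were negative, beside a median of 0.01 and 7452 negative of 15302 over all genes. In 21 of the 31 genes (67.7%) both creatine libraries lay below both controls, a pattern that 28.9% of all genes showed. In 5 genes (LDHB, SLC16A1, PFKFB2, PDK1 and PDHB) both creatine libraries lay above both controls, beside 29.2% of all genes. The libraries of the 2 groups overlapped in the other 5. An exact permutation test of 2 against 2 libraries cannot go below p = 0.333, so single values without a fit across all genes carry no call. In RNA from bulk cultures, fewer cells of a type and less RNA per cell cannot be told apart. Without creatine library 1, 3 of the 14 were called (SLC2A1, ENO2 and SLC16A3), without creatine library 2 there were 9, without control library 1 there were 13 (all but ALDOC) and without control library 2 all 14. In each of these fits the lone library is assumed to vary like the remaining pair of the other group, and calls over all genes numbered 1162 without creatine library 1 and 1951 without creatine library 2, against 3001 with all libraries. The log2 fold changes of the 14 stayed between -0.15 (ENO1) and -0.38 (ENO2) without creatine library 1, and those of HK1 (-0.28), GAPDH (-0.16) and PKM (-0.22) hardly moved.

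Glucose enters through SLC2A1 (GLUT1), the widespread basal transporter, and SLC2A3 (GLUT3), a high-affinity transporter. SLC2A1 (chr1:42925375-42959176 on GRCh38, minus strand) had 331 and 323 CPM in the creatine libraries, against 421 and 401 CPM in the controls. Both creatine values were below both controls, and the log2 fold change was -0.33 with a standard error (SE) of 0.06 (adjusted p = 0.00133). SLC2A3 had 102 and 103 CPM with creatine against 108 and 94.9 CPM in controls, with overlapping groups and a log2 fold change of 0.01 (95% interval -0.15 to 0.17). Summed over both transporters, CPM was 16.3% lower with creatine.

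Hexokinase traps glucose as glucose 6-phosphate, with HK1 the housekeeping form and HK2 the form most often raised in tumours. HK1 (chr10:69269984-69401884, plus strand) had 337 and 341 CPM in the creatine libraries, against 411 and 415 CPM in the controls. The libraries of each group were nearly level and the groups stood apart, with a log2 fold change of -0.29 (SE 0.06, 95% interval -0.42 to -0.16, adjusted p = 0.00326), or 0.0513 without creatine library 1. HK2 had 124 and 122 CPM with creatine against 118 and 122 CPM in controls, a log2 fold change of 0.04 (95% interval -0.11 to 0.18). The whole HK2 interval lies above that of HK1.

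Glucose 6-phosphate isomerase (GPI) makes fructose 6-phosphate, and phosphofructokinase commits it to glycolysis as a tetramer of liver (PFKL), muscle (PFKM) and platelet (PFKP) type subunits. GPI fell to 288 and 307 CPM in the creatine libraries, against 370 and 354 CPM in the controls (log2 fold change -0.28, adjusted p = 0.00444, and 0.102 without creatine library 1). Of the subunits, PFKP was the highest per kilobase, at 69.1 CPM per kb with creatine against 83.5 CPM per kb in controls. PFKP had 326 and 342 CPM in the creatine libraries, against 401 and 406 CPM in the controls (log2 fold change -0.27, adjusted p = 0.00471). PFKL had 155 and 161 CPM with creatine against 190 and 199 CPM in controls (log2 fold change -0.30, adjusted p = 0.00379). Both fell without overlap, but without creatine library 1 the adjusted p was 0.10 for PFKP and 0.0629 for PFKL. PFKM averaged 123 ± 1.05 CPM with creatine against 134 ± 0.509 CPM in controls (SD, n = 2 each) and was not called (log2 fold change -0.12, 95% interval -0.26 to 0.02).

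Of the PFKFB enzymes, which carry both kinase and phosphatase activity, PFKFB3 is the form with the strongest kinase bias. PFKFB3 had 61.0 and 66.8 CPM in the creatine libraries, against 78.2 and 77.0 CPM in the controls, with a log2 fold change of -0.28 (SE 0.08, adjusted p = 0.0152, and 0.221 without creatine library 1). PFKFB4 averaged 50.2 ± 1.34 CPM with creatine against 58.3 ± 0.635 CPM in controls (SD, n = 2 each), with no overlap, and its adjusted p of 0.0742 missed the threshold (log2 fold change -0.21, 95% interval -0.39 to -0.04). PFKFB2, the heart-type form, had only 26 and 21 counts in the creatine libraries against 4 and 12 counts in the controls. Its log2 fold change of 1.62 came with a 95% interval of -0.16 to 3.39 and, at this depth, no difference was called (adjusted p = 0.199).

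Aldolase cleaves fructose 1,6-bisphosphate, and triosephosphate isomerase (TPI1) interconverts its products. ALDOC, best known from brain, was above ALDOA, the form of most tissues, at 43.0 against 6.96 CPM per kb in the creatine libraries and 50.3 against 7.71 CPM per kb in the controls. ALDOC had 124 and 128 CPM in the creatine libraries against 152 and 143 CPM in the controls, a fall of 0.22 on the log2 scale (adjusted p = 0.0260), a call that was lost without control library 1 (0.102), creatine library 1 (0.226) or creatine library 2 (0.0841). ALDOA had 42.5 and 43.1 CPM with creatine against 43.1 and 51.8 CPM in controls, where control library 2 alone stood higher. Its level is uncertain, since 42.3% of its exon bases in GENCODE 29 are shared on the same strand with AC093512.2. That gene is not among the symbols counted. TPI1 averaged 860 ± 41.0 CPM with creatine against 941 ± 29.6 CPM in controls (SD, n = 2 each) and was not called (log2 fold change -0.13, adjusted p = 0.142, and 0.0238 without control library 1).

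The pathway below the triose phosphates holds the members with the highest levels. Per kilobase of gene length, GAPDH, ENO1 and PKM had 2294, 1089 and 510 CPM with creatine, against 2580, 1236 and 595 CPM in controls. GAPDH (chr12:6533927-6538374, plus strand), which oxidises glyceraldehyde 3-phosphate and is commonly used as a reference transcript, had 6806 and 6874 CPM in the creatine libraries, against 7765 and 7618 CPM in the controls. It fell without overlap by 0.17 on the log2 scale (SE 0.05, adjusted p = 0.0181), with 0.169 without creatine library 1 and 0.119 without creatine library 2. PGK1, which makes the first ATP of the pathway, had 1746 and 1823 CPM with creatine against 1881 and 1853 CPM in controls and was not called (log2 fold change -0.07, 95% interval -0.18 to 0.05). The next enzyme, the mutase PGAM1, had 435 and 458 CPM in the creatine libraries, against 523 and 518 CPM in the controls (log2 fold change -0.22, adjusted p = 0.0151, with 0.226 and 0.0528 without creatine library 1 or 2).

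Enolase makes phosphoenolpyruvate, from ENO1 in most cells, ENO2 in neurons and ENO3 in muscle. ENO1 (chr1:8861000-8879250, minus strand) had 4205 and 4417 CPM in the creatine libraries, against 4894 CPM in both controls. It fell by 0.18 on the log2 scale (SE 0.05, adjusted p = 0.0166, with 0.251 and 0.0557 without creatine library 1 or 2). ENO2 had 71.0 and 67.0 CPM with creatine against 88.2 and 86.5 CPM in controls, a fall of 0.34 that was kept without any single library (SE 0.08, adjusted p = 0.00372). ENO3 averaged 16.0 ± 2.16 CPM with creatine and 17.8 ± 0.245 CPM in controls (SD, n = 2 each), which was not called.

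Pyruvate kinase, from PKM, closes the pathway by making pyruvate and ATP. PKM (chr15:72199029-72231822, minus strand) had 4363 and 4374 CPM in the creatine libraries, against 5092 and 5099 CPM in the controls. Replicates were nearly level and the groups stood apart, with a log2 fold change of -0.22 (SE 0.05, adjusted p = 0.00454, or 0.0592 without creatine library 1). Counts per gene cannot separate the M1 and M2 splice forms of PKM.

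Lactate dehydrogenase is a tetramer of A subunits, which favour lactate formation, and B subunits, which favour pyruvate. LDHA (chr11:18394388-18408425, plus strand) had 1784 and 1872 CPM in the creatine libraries, against 1867 and 1836 CPM in the controls. The groups overlapped, and the log2 fold change of -0.02 had a 95% interval of -0.14 to 0.10. LDHB (chr12:21635342-21757857, minus strand) had 1100 and 1219 CPM with creatine against 1017 and 1039 CPM in controls. Both creatine libraries were above both controls for LDHB, by 0.17 on the log2 scale (95% interval 0.04 to 0.30), but its adjusted p of 0.0536 missed the threshold. DESeq2 gave LDHB an adjusted p of 0.0297, and the log2 fold change without creatine library 2 was 0.09. In GENCODE 29, 33.4% of the exon bases of LDHB are shared on the same strand with AC010197.2, which is not among the symbols counted.

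Lactate crosses the membrane by SLC16A1 (MCT1), a high-affinity carrier in either direction, and SLC16A3 (MCT4), a low-affinity exporter of glycolytic cells, both of which need the chaperone basigin (BSG). SLC16A3 (chr17:82228397-82261129, plus strand) had 287 and 295 CPM in the creatine libraries, against 361 and 380 CPM in the controls. It had the smallest p among the 31 tested genes, with a log2 fold change of -0.35 (SE 0.06, adjusted p = 0.00102), and was called without any single library. SLC16A1 had 107 and 110 CPM with creatine against 89.5 and 98.4 CPM in controls, no overlap, and a log2 fold change of 0.20 (95% interval 0.05 to 0.36) whose adjusted p of 0.0545 missed the threshold, with 0.0419 by DESeq2. BSG had 419 and 418 CPM in the creatine libraries, against 468 and 495 CPM in the controls (log2 fold change -0.20, adjusted p = 0.0256, with 0.169 and 0.162 without creatine library 1 or 2). The carriers therefore pointed in opposite directions, with only SLC16A3 past the threshold.

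**Figure D2:**
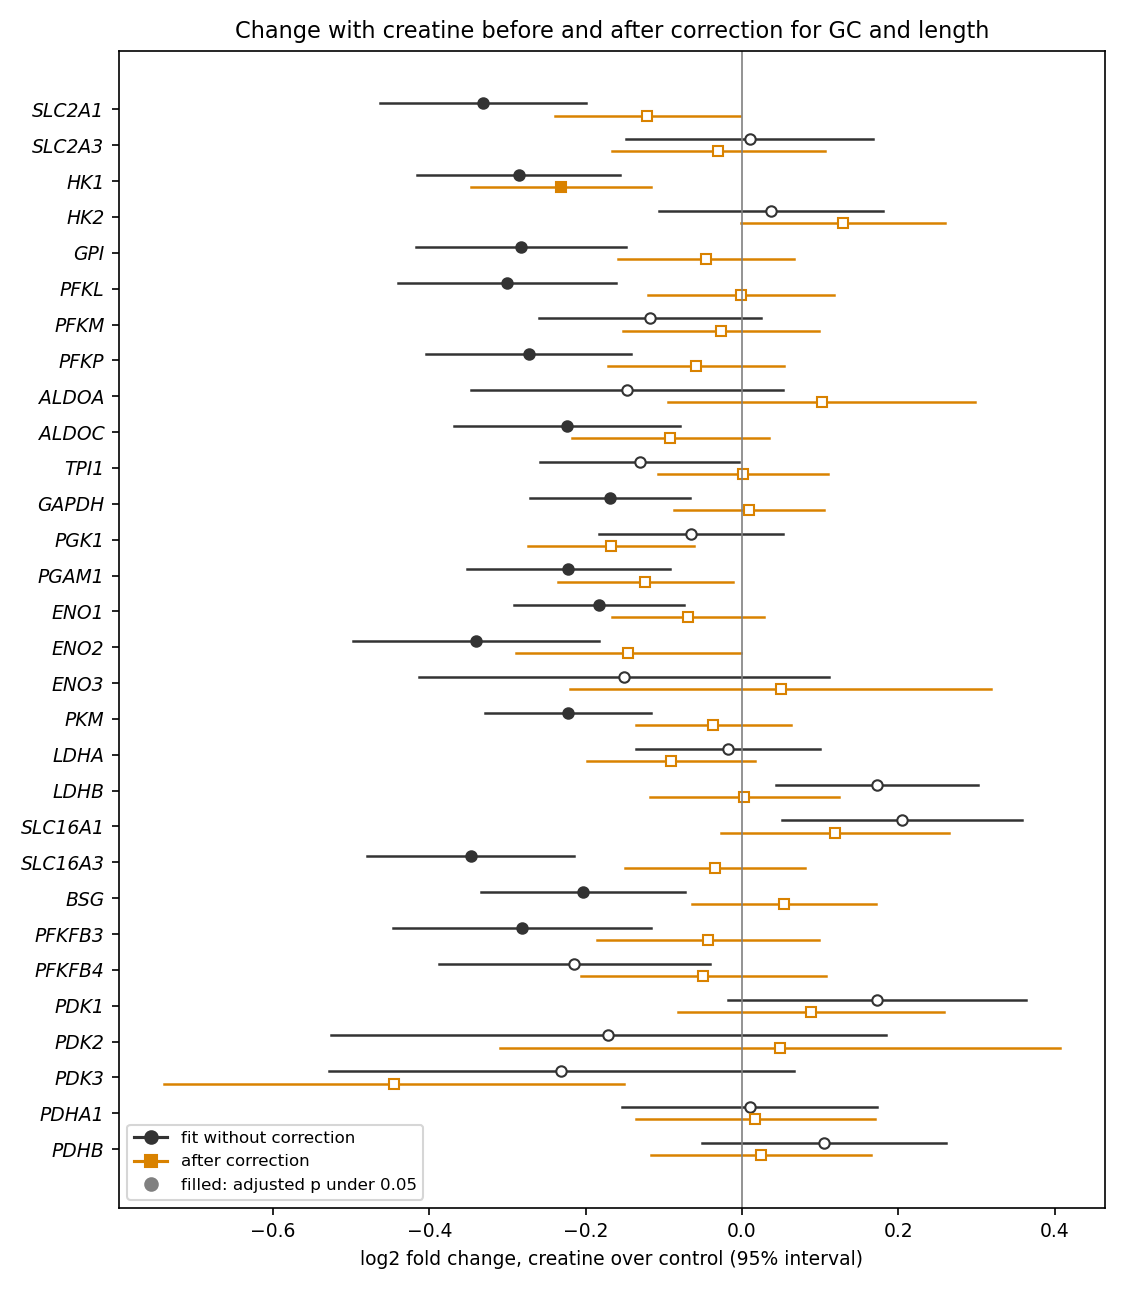
Log2 fold change of 30 tested genes, creatine over control, with 95% intervals, in the fit without correction (black circles) and after the correction for GC content and gene length described in the text (orange squares), with filled points for an adjusted p under 0.05. Without PFKFB2, which at 1.62 lies beyond the axis and is not drawn, 14 genes lie below 0 past the threshold before correction, and HK1 alone is filled after it.

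The promoters of 4 genes are printed to show the sequence at genes that were lower with creatine (ENO1 and SLC16A3) and at genes that were not called (PGK1 and LDHA). PGK1 and LDHA were picked as having the most ACGTG matches, or among the most, so the 4 windows do not typify their groups. Each is the 300-base window from 250 bases before to 50 bases after the start listed by RefSeq on GRCh38.p14, on the gene's strand, and the start used in these cells may differ. Capitals mark ACGTG and GCGTG on either strand, the core letters that hypoxia-inducible factor is known to read. The E-box CACGTG, read by MYC, holds ACGTG on both strands. The windows are chr1:8878637-8878936 (minus strand) for ENO1, chr17:82228185-82228484 (plus) for SLC16A3, chrX:78103998-78104297 (plus) for PGK1 and chr11:18394313-18394612 (plus) for LDHA.
ENO1: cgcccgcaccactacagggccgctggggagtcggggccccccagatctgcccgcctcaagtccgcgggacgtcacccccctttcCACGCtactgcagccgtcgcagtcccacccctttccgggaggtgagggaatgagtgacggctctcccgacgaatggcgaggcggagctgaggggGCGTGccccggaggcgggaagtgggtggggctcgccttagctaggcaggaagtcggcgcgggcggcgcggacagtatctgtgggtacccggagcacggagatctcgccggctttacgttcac
SLC16A3: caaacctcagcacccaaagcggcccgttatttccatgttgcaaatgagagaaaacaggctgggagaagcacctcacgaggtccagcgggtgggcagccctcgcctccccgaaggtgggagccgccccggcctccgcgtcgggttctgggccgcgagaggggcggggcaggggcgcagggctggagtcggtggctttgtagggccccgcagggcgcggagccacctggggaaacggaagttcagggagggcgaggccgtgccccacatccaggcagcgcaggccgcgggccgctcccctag
PGK1: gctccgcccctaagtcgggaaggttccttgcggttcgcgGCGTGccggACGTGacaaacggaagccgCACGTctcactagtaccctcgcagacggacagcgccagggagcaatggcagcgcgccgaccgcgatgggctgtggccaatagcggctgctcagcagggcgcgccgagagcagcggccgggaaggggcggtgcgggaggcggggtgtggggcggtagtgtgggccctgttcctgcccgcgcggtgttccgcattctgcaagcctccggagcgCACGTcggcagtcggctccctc
LDHA: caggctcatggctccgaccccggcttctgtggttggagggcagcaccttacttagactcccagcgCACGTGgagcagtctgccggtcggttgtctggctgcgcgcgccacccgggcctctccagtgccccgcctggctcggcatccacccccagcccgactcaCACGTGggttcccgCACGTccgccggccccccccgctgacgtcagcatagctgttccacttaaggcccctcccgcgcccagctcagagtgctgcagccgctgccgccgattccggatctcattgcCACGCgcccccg
The LDHA window holds 2 E-boxes, the ENO1 window 2 matches to GCGTG and none to ACGTG, and the SLC16A3 window no match to either. Among the 29 genes with a RefSeq window, 19 (65.5%) held ACGTG or GCGTG, beside 61.1% of the windows of all tested genes and 48.4% of all 27305 windows. The letters were found in 9 of 14 genes that fell (64.3%) and in 10 of 14 that were not called (71.4%). ACGTG alone was found in 4 of 14 genes that fell (28.6%) and 6 of 14 not called (42.9%), beside 26.1% of all tested genes. CACGTG was found in 4 of 29 windows (13.8%), beside 9.81% of the windows of all tested genes and 7.43% of all windows. A match describes letters only.

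At the branch into the mitochondrion, PDHA1 and PDHB encode the subunits of the E1 enzyme of pyruvate dehydrogenase, and PDK1 to PDK4 its inhibitory kinases. PDHA1 averaged 72.6 ± 0.0768 CPM with creatine against 72.2 ± 4.5 CPM in controls, and PDHB averaged 84.2 ± 3.83 against 78.3 ± 0.150 CPM (SD, n = 2 each). Neither was called, with log2 fold changes of 0.01 (95% interval -0.15 to 0.17) and 0.10 (-0.05 to 0.26). In GENCODE 29, 21.3% of the exon bases of PDHA1 lie opposite MAP3K15, and without a stated strand setting such reads cannot be told apart.

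PDK1, the kinase most tied to low oxygen, had 3.31 CPM per kb with creatine and 2.94 in controls, beside 3.67 and 4.30 CPM per kb for PDK3. The order of PDK1 and PDK3 is uncertain, since the deposited length of PDK3 is 2695 bases while its exons in GENCODE 29 cover 4951. In CPM, PDK1 had 48.6 and 49.9 CPM in the creatine libraries against 46.7 and 40.7 CPM in the controls. The groups did not overlap, and its log2 fold change of 0.17 (95% interval -0.02 to 0.36, adjusted p = 0.203) was not called. PDK2 had 6.68 and 6.10 CPM with creatine against 6.82 and 7.58 CPM in controls, although 38.6% of its exon bases lie opposite SAMD14. PDK3 had 9.48 and 10.3 CPM in the creatine libraries, against 12.1 and 11.0 CPM in the controls, with a log2 fold change of -0.23 (adjusted p = 0.287). PDK4, a kinase raised in fasting, had 0 counts in every library, which allows up to 0.0583 and 0.0626 CPM with creatine and 0.05 and 0.0611 CPM in controls (3 counts per library, counting error only). No kinase of the complex therefore changed past the threshold.

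Fold changes of these genes followed the base composition of their transcripts. Across the 31 genes Spearman's rho between the log2 fold change and the transcript GC content was -0.65, and across 15279 tested genes with a GC value it was -0.52. Genes within a library share its preparation and are not independent, so no p is given. Each of the 14 genes that fell had a GC content of at least 50%, where 14 of 21 tested members (66.7%) fell beside 20.8% of 7358 genes. At 50% GC or more and a mean of at least 100 CPM, 12 of 15 members fell, beside 473 of 1135 genes (41.7%). Under 50% GC, 0 of 10 members were called in the edgeR test, 2 of them (LDHB and SLC16A1) with an unadjusted p under 0.05 and called by DESeq2, beside 1313 higher and 67 lower of 7921 genes. The low-GC members include SLC2A3, PGK1, LDHA, LDHB, SLC16A1, PDK1 and PDK3.

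**Figure D3:**
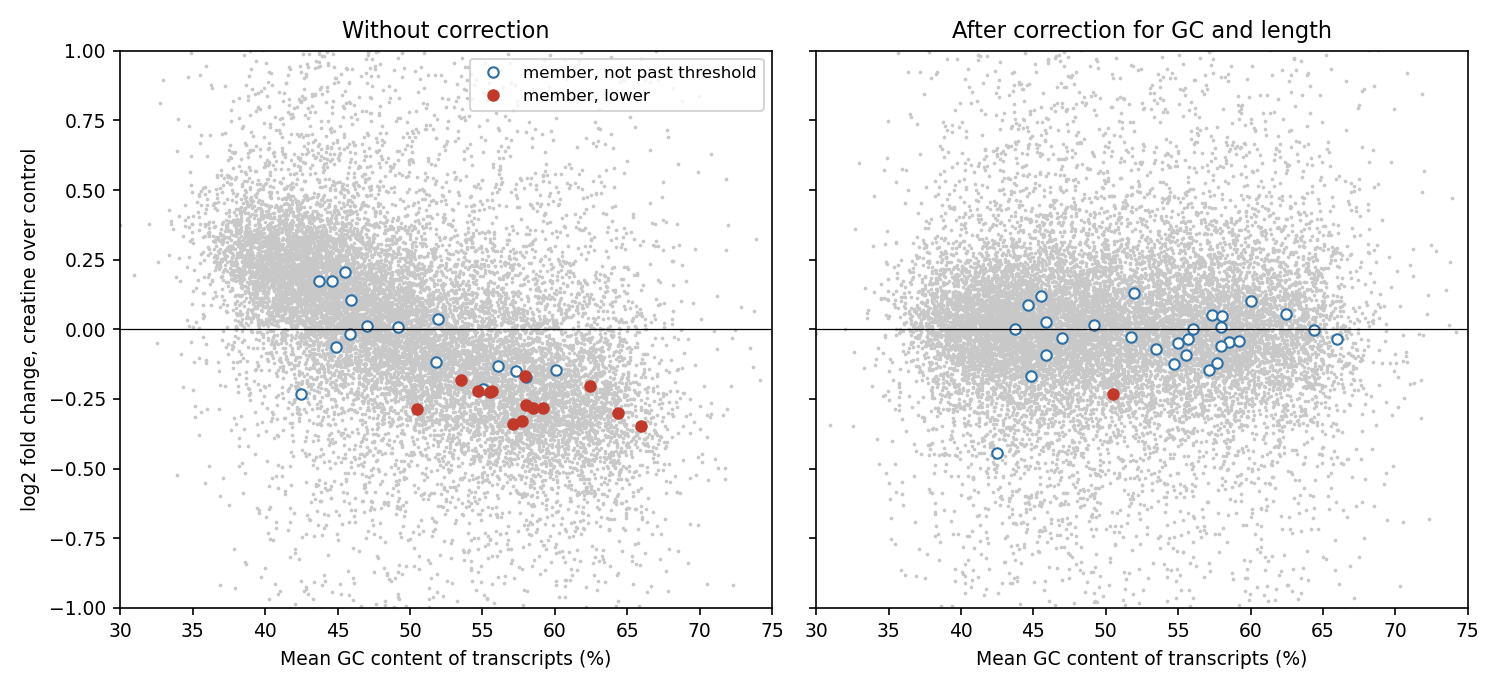
Log2 fold change, creatine over control, against mean transcript GC content (percent), without correction (left) and after correction for GC content and length (right), for all tested genes in grey, members past the threshold as filled red points and other members as open blue points (values beyond 1 on the log2 scale, PFKFB2 among them, are not shown). In the left panel the cloud slopes down and the 14 genes that fell lie to the right of 50%, while in the right panel the slope is gone and HK1 is the filled point.

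When a smooth trend of each library on GC content and gene length was entered into the same edgeR model, Spearman's rho with GC was 0.06 for the members and -0.01 for all genes. The correction also removes any effect of creatine that follows GC content or length. HK1 alone of the 31 genes was then called (3.23%), beside 2.58% of all genes changed, 1.41% higher and 1.17% lower. Its corrected log2 fold change was -0.23 (95% interval -0.35 to -0.12, adjusted p = 0.0320). That call was kept without control library 1 (-0.28, adjusted p = 0.00132) but not without control library 2 (-0.21, 0.0599), creatine library 1 (-0.23, 0.119) or creatine library 2 (-0.24, 0.0679). Corrected for GC content alone, HK1 had -0.27 and an adjusted p of 0.0286.

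For the other genes that fell, corrected log2 fold changes lay nearer 0. SLC2A1 had -0.12, ENO2 had -0.15 and PGAM1 had -0.12, with adjusted p-values of 0.283, 0.292 and 0.242. PKM (-0.04), SLC16A3 (-0.03), GPI (-0.05) and PFKP (-0.06) were closer still, and PFKL (-0.00) and GAPDH (0.01) were at or next to 0. ALDOC (-0.09), ENO1 (-0.07) and PFKFB3 (-0.04) stayed negative, and BSG came to 0.05. PGK1 and PDK3, which have low GC, moved the other way, to -0.17 (adjusted p = 0.0876) and -0.44 (adjusted p = 0.103), without passing. Without control library 1, PGK1 was called after correction (-0.19, adjusted p = 0.0135). LDHB came to 0.00 and SLC16A1 to 0.12. The median over the members was -0.03. At an unadjusted p under 0.05 in the corrected edgeR fit, 6 of 31 members were lower and 0 higher. The 6 were HK1, SLC2A1, PGAM1, ENO2, PGK1 and PDK3. Over all 15302 genes, 1225 were lower and 1362 higher at that level. Whether the GC trend belongs to the treatment or to library preparation cannot be told apart, since it separates the same 2 pairs of libraries.

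Isoform balance was described as the share of each gene in its family, from counts per kilobase of the deposited gene length. That length equalled the merged exons of GENCODE 29 in 23 of the 32 genes, and among the other 9 it was furthest off in PDK3, ALDOA (6153 against 3916 bases) and ENO1 (3958 against 5276 bases). None of these shares can pass an exact permutation test of 2 against 2 libraries (two-sided p = 0.333 where groups do not overlap). HK1 made up 73.0% and 73.7% of hexokinase in the creatine libraries, against 77.7% and 77.3% in the controls, with HK2 as the rest. The groups did not overlap, and the difference of -4.14 percentage points was -4.63 after the GC and length correction. SLC2A1 made up 80.9% and 80.4% of the 2 glucose transporters with creatine against 83.5% and 84.7% in controls, a difference of -3.45 points before and -0.939 after correction.

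Among the monocarboxylate transporters the SLC16A1 share was 38.6% in both creatine libraries, against 29.6% and 30.5% in the controls. The difference was +8.6 points without correction, the widest of the 9 families, and +6.88 points on counts not divided by length. After correction it was +2.42 points, smaller than for PDK3, PDK1 and HK1. The LDHA share of lactate dehydrogenase was 43.8% and 42.5% with creatine against 46.9% and 45.9% in controls, -3.25 points before and -1.57 after correction. On counts not divided by length, LDHA averaged 61.2% with creatine and 64.3% in controls (-3.08 points). Which of LDHA and LDHB is the larger therefore depends on dividing by gene length. Total lactate dehydrogenase was 2884 and 3091 CPM in the creatine libraries against 2885 and 2875 CPM in the controls. The LDHA share was thus lower in both creatine libraries than in either control, while LDHA CPM overlapped between the groups.

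PDK1 took 40.8% and 40.5% of the pyruvate dehydrogenase kinases in the creatine libraries, against 35.3% and 33.3% in the controls. PDK3 had 43.9% and 46.1% with creatine against 50.7% and 49.9% in controls. These shares did not overlap, with PDK1 at +6.36 points before and +6.74 after correction and PDK3 at -5.27 before and -8.97 after. On counts not divided by length PDK1 held 75.2% with creatine and 69.9% in controls, and PDK3 15.1% with creatine and 18.6% in controls. The PDK2 share overlapped between the groups and its difference turned sign, -1.09 points before and 2.23 after correction. Within phosphofructokinase, PFKM had 16.6% and 16.1% with creatine against 14.9% and 14.8% in controls (+1.47 points, and +0.189 after correction), while PFKP stayed the main form at 66.4% to 67.7% in all 4 libraries. ENO1 made up 98.0% to 98.3% of enolase in every library, and the ALDOA share overlapped between groups, at 14.1% and 13.8% with creatine against 11.9% and 14.7% in controls. PFKFB2 stayed under 0.3% of its family.

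**Figure D4:**
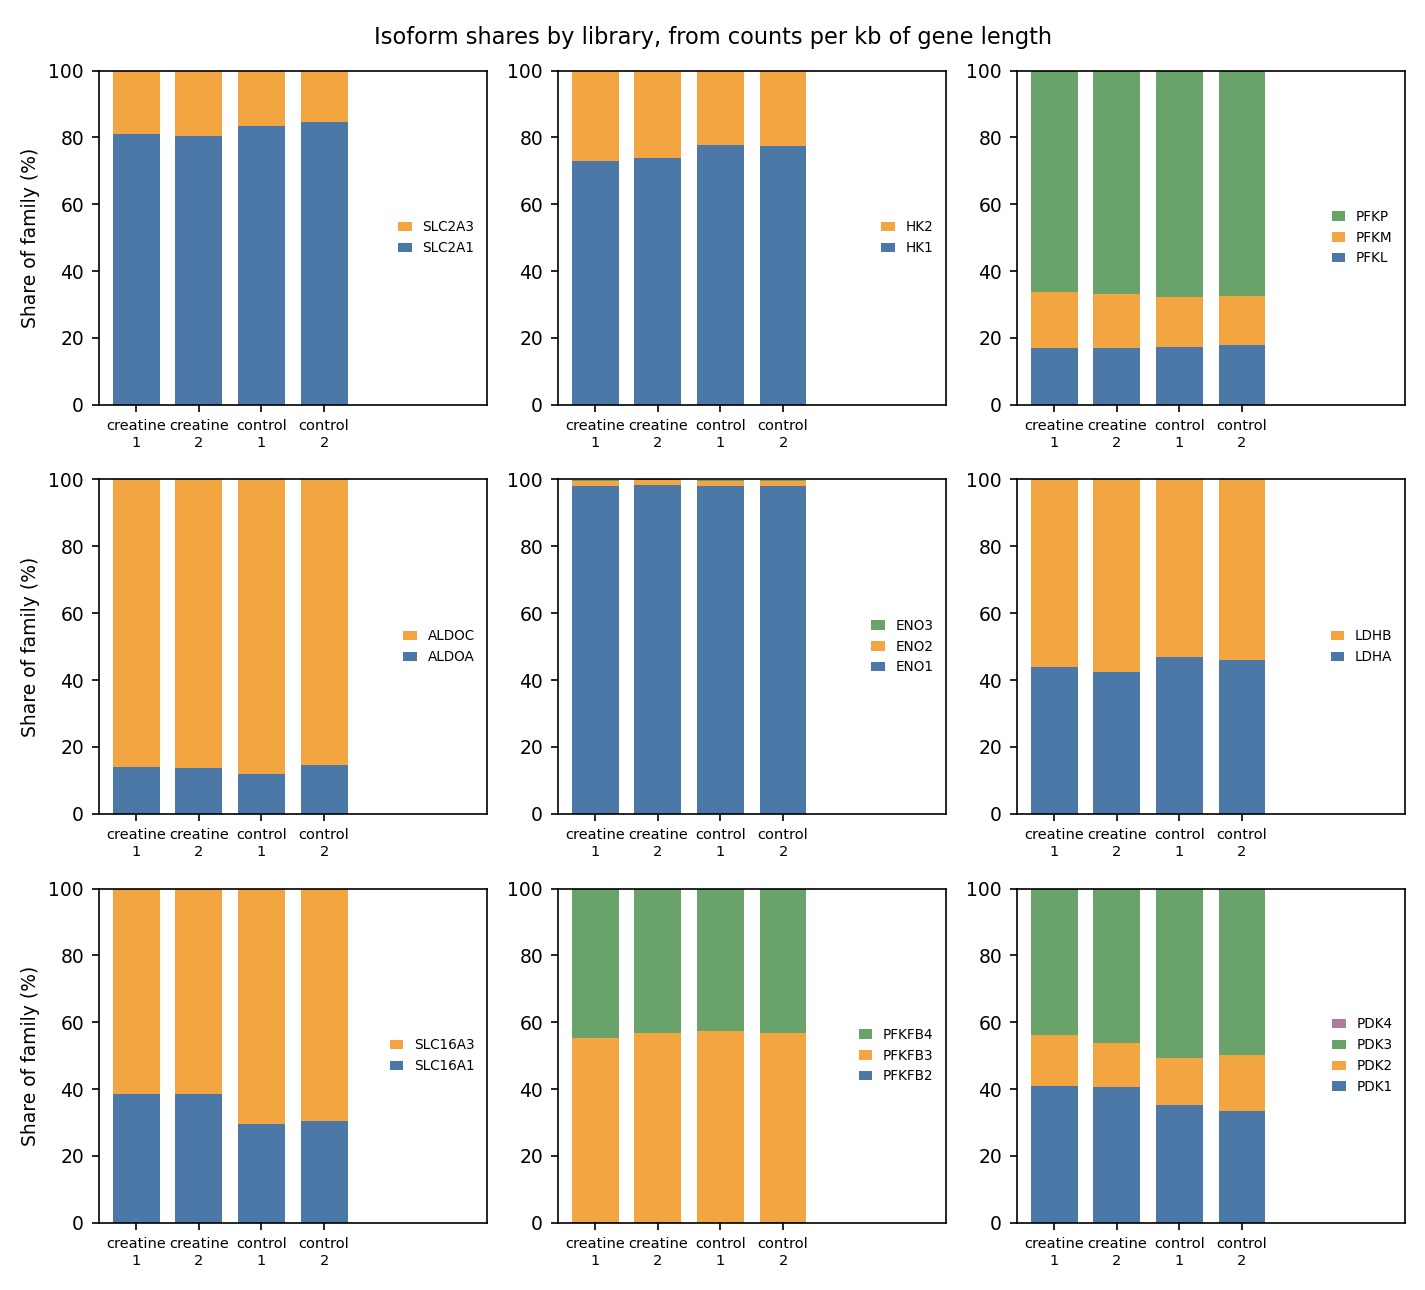
Share of each gene within its isoform family (percent, from counts per kilobase), as stacked bars for the 2 creatine libraries and then the 2 control libraries, with 1 panel for each of the 9 families. In every family but the aldolases at least 1 share does not overlap between the groups, ENO1 included, though it stays near 98%. In CPM, 29.2% of all tested genes had both creatine libraries above both controls and 28.9% below.

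Other genes of glucose, lactate and pyruvate handling were read from the same fit. Of a list of 56, 40 were tested, and 2 rose, 2 fell and 36 did not pass, or 10% called beside 19.6% of all genes. Their median log2 fold change was -0.06 and their mean 0.00. PGM1, which links glucose 6-phosphate to glycogen, had 52.1 and 53.4 CPM in the creatine libraries, against 68.6 and 65.8 CPM in the controls. It fell by 0.35 on the log2 scale (SE 0.08, adjusted p = 0.00491) and was called after correction at -0.35 (adjusted p = 0.0168). Without creatine library 1 its adjusted p was 0.0537 before and 0.0561 after correction. MDH2, the mitochondrial malate dehydrogenase, had 286 and 282 CPM with creatine against 318 and 325 CPM in controls (log2 fold change -0.18, adjusted p = 0.0499 in edgeR). That call was lost in edgeR with DESeq2 size factors (0.0516), upper-quartile scaling (0.0713) or no low-count filter (0.0515). It was kept under the other filter, DESeq2, limma-voom, robust edgeR and the replicate block. Without creatine library 1 or 2 the call of MDH2 was also lost, with log2 fold changes of -0.19 and -0.17. After correction its log2 fold change was -0.03 and MDH2 was not called.

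The genes that rose were DLD and MPC2, 2 of the 40 tested, where 9.15% of all genes rose. DLD, the E3 subunit of pyruvate dehydrogenase, had 147 and 146 CPM in the creatine libraries, against 122 and 124 CPM in the controls (log2 fold change 0.26, adjusted p = 0.0109, with 0.102 and 0.0790 without creatine library 1 or 2). MPC2, a subunit of the mitochondrial pyruvate carrier, had 35.5 and 38.0 CPM with creatine against 28.3 and 32.1 CPM in controls (log2 fold change 0.29, adjusted p = 0.0489). That call was lost without control library 1 (0.289), creatine library 1 (0.102) or creatine library 2 (0.270). After correction DLD had 0.05 and MPC2 0.26, and neither was called. The partner subunit MPC1 averaged 21.5 ± 2.14 CPM with creatine and 19.5 ± 1.60 CPM in controls (SD, n = 2 each), which was not called.

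Of 26 regulators of glycolytic genes and their common other targets, 20 were tested, and 1 rose, 3 fell and 16 did not pass, or 20% called beside 19.6% of all genes. HIF1A, the oxygen-regulated subunit of hypoxia-inducible factor, rose to 716 and 726 CPM in the creatine libraries, against 600 and 582 CPM in the controls (log2 fold change 0.29, adjusted p = 0.00263). MYC, a transcription factor that raises many glycolytic genes, had 251 and 267 CPM with creatine against 307 and 316 CPM in controls (log2 fold change -0.27, adjusted p = 0.00633, and 0.138 without creatine library 1). Of 5 tested hypoxia targets outside glycolysis, NDRG1 and CA9 fell, while VEGFA (log2 fold change 0.00), BNIP3 (0.06) and BNIP3L (0.14) were not called. NDRG1 had 797 and 816 CPM with creatine against 1003 and 993 CPM in controls (-0.31, adjusted p = 0.00133), and the carbonic anhydrase CA9 had 63.9 and 63.2 CPM against 87.1 and 82.1 CPM (-0.41, adjusted p = 0.00111). HIF1A has a GC content of 41.0% and the other 3 lie between 56.7% and 58.4%. After correction only CA9 of the 4 was called (-0.32, adjusted p = 0.0293), and it was not called with GC content alone corrected (0.0882), nor after correction without control library 1 (-0.21, 0.184) or creatine library 1 (0.0590). HIF1A, MYC and NDRG1 then had 0.09, -0.08 and -0.10.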

How the data were processed

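Per the labels' protocols, libraries for RNA sequencing were made from total RNA by the TruSeq method. The authors deposited raw read counts for each gene symbol, beside a gene length in bases. Per the submitters' processing notes, FastQC 0.11.9, HISAT2 2.2.1, featureCounts and DESeq2 were used with GRCh38. Which annotation and strand setting were used, and how reads with several matches were handled, is not given in the sources used here. Numbered pseudogenes of 12 of the 32 genes were in the table and held at most 0.723% of their gene's count.

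The main test was that of edgeR 4.0.16, run under R 4.3.3 (TMM scaling, filterByExpr, quasi-likelihood test, Benjamini-Hochberg adjustment over 15302 genes, threshold 0.05), with the group as the only term, 2 residual degrees of freedom per gene and a median of 22.9 in total. The procedure was tested on simulated data. CPM values use the TMM factors. Alternatives were DESeq2 1.42.0, limma-voom (limma 3.58.1), robust edgeR, other scalings and filters, a replicate block, each library left out, and offsets from smooth trends on GC content with or without gene length (mgcv 1.9.3). The last correction with each library left out was added after seeing the data. Coordinates, GC content and overlaps came from GENCODE 29 on GRCh38, which matched 34408 of 34545 symbols, and promoter windows from RefSeq. Of the tested genes, 23 had no GC value.

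The members and gene lists were chosen with earlier results of these data known. Values in every library are given for genes past the threshold, for the lactate dehydrogenases, hexokinases and pyruvate dehydrogenase kinases and for GAPDH, and genes of the other lists are named where they passed. MPC1, BNIP3, BNIP3L and the genes called after correction only were chosen after their values were seen. Floors and intervals on counts cover counting error only, since reads carry no molecular identifiers.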

Additional observations from a re-analysis of the deposited data

How the results depend on the processing

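The 14 genes that fell were all called under each other scaling, filter and tool and under the replicate block. Over all genes, calls numbered between 1162 and 3114 with 1 library left out (1162 without creatine library 1, 1951 without creatine library 2, against 3001), and 395 and 319 after correction for GC content and length or for GC content alone. Of the 32 genes, 3 to 16 were called with 1 library left out (3 without creatine library 1, 9 without creatine library 2), 1 after either correction, and 0 to 2 after correction with a library also left out (0 without control library 2, creatine library 1 or creatine library 2, where 10, 4 and 3 had an unadjusted p under 0.05 in edgeR). Of the other pathway genes, 2 of 50 were called with no filter, beside 3065 of 21954 genes. After the corrections 2 and 1 of 40 were called, beside 395 and 319 of 15302 genes. Of the 20 tested regulators, 3 were called after correction for GC content and length, beside 2.58% of all genes. After correction for GC content alone 0 were called. In that edgeR fit 3 regulators were higher and 4 lower at an unadjusted p under 0.05, beside 1171 higher and 1441 lower of 15302 genes. The members' median log2 fold change was -0.0305 and -0.0670 after the corrections.

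Log2 fold changes turned sign in SLC2A3 (-0.0305 and -0.0639 after the corrections, -0.0961 to 0.109 with 1 library left out), ALDOA (0.102 and 0.0694), TPI1 (0.00173 and 0.0184), GAPDH (0.00901 and 0.0155), ENO3 (0.0496 and 0.0249), BSG (0.0540 and 0.0369), PDK2 (0.0486 and 0.0162), LDHA (-0.0581 to 0.0140 with 1 library left out) and PDHA1 (-0.00743 for GC content alone, -0.0539 to 0.0601 with 1 library left out). Shares were recomputed for the first-named gene of each family, and those that moved by more than 1 SD were, after correction, SLC2A1 (-0.939 points), HK1 (-4.63), PFKL (0.515), LDHA (-1.57) and SLC16A1 (2.42), and, on counts not divided by length, PFKL (-0.905), SLC16A1 (6.88), PFKFB2 (0.299) and PDK1 (5.31). Among the other genes of the families, PFKM went to 0.189, PFKFB3 to 0.00 and PFKFB4 to -0.154 points after correction, PDK2 to 2.23 and PDK3 to -8.97. The cause of these moves was not tested. At this depth PFKFB2 and PDK4 cannot be judged.

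Replicate numbers did not pair the libraries (correlation of deviations -0.0228 over 15302 genes). With the replicate block, 3795 genes, 16 of the 32, 5 other pathway genes and 5 regulators were called.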

Other observations

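Several genes of the pathway and regulator lists passed only after the correction for GC content and length. After it, 1 of 40 tested other pathway genes and 2 of 20 tested regulators were higher, beside 1.41% of all genes. In each list 1 gene was lower, beside 1.17% of all genes. PCK2, the mitochondrial phosphoenolpyruvate carboxykinase, averaged 169 ± 2.67 CPM with creatine and 167 ± 11.9 CPM in controls (SD, n = 2 each). Its log2 fold change was 0.02 before correction (adjusted p = 0.910) and 0.25 after it (adjusted p = 0.0375). VEGFA, an angiogenic factor, averaged 433 ± 12.6 CPM with creatine and 432 ± 6.01 CPM in controls, with 0.00 before and 0.24 after correction (adjusted p = 0.0268). ESRRA, a nuclear receptor of energy metabolism, averaged 92.2 ± 10.2 CPM with creatine and 90.5 ± 13.5 CPM in controls, with 0.03 before and 0.29 after correction (adjusted p = 0.0485). All of them have GC-rich transcripts, at 60%, 57.7% and 65.3%, and none was called in the edgeR fit without correction. With GC content alone corrected none passed (PCK2 0.0713, VEGFA 0.103, ESRRA 0.0765). After the correction for GC content and length, PCK2 was lost without control library 1 (0.206) or creatine library 1 (0.178), VEGFA without creatine library 1 (0.0714) or creatine library 2 (0.0874), and ESRRA without control library 1 (0.241) or creatine library 2 (0.152). The libraries of the groups overlap in CPM for each of them.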
